A study of Mus musculus with 8 samples.

Results

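Mitosis and cytokinesis genes encode the machinery that condenses, captures and separates the chromosomes and then cuts the cell apart. The set described here has 40 named mouse genes of the G2 and M phases, taken by symbol from a table of 53647 genes, and all 40 passed the filter on low counts. Of these 40 genes 39 fell in macrophages that had been cultured with stromal cells, and the securin gene Pttg1 rose.

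Counts came from 8 polyA RNA libraries of leukemia macrophages (strain C57BL/6), with 4 libraries in each of 2 groups. In the Mac group the cells were kept on their own for 12 h. In the E-Mac group (MSC-educated) they shared the culture for the same 12 h with MSC, mesenchymal stromal cells, which are fibroblast-like, and the target cells were then sorted. The labels used here give neither the leukemia model, the sort markers nor the source of the MSC, and they do not say whether libraries came from separate cultures or animals. The p-values therefore measure only the spread among these samples, and that spread may be technical. The comparison addresses how the RNA of the sorted cells differed after a culture shared with MSC.

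Library totals ran from 11646025 to 15740846 counts. The E-Mac group split in pairs: scores on principal component 2 were 20.6 and 28.9 for E-Mac 2 and 4, which also held more stromal marker counts, and -26.2 and -22 for E-Mac 1 and 3. Results are therefore also given without E-Mac 2 and 4. All of 14 macrophage core markers were detected, and they summed to 13032 to 14094 CPM in Mac and 8972 to 12387 in E-Mac. The 18 granulocyte granule and maturation markers, some of which monocytes also express, summed to 34305 to 38104 CPM in Mac and 11821 to 19076 in E-Mac. The granulocyte sum thus exceeded the macrophage core sum in every Mac library, and in every E-Mac library except E-Mac 1. These sums do not give the share of each cell type, so the label of the cells was not checked by them. CPM is a count divided by the library's total over the tested genes, with that total multiplied by its TMM factor, and scaled to 1000000. A value such as -1.36 ± 0.23 is a log2 fold change, E-Mac over Mac, with its standard error (n = 4 and 4), and every adjusted p is from edgeR's quasi-likelihood test with Benjamini-Hochberg adjustment over the 13412 genes tested.

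In a dividing cell the kinase CDK1, bound to cyclin A or B, starts mitosis. Kinetochores then attach the chromosomes to spindle microtubules while the spindle checkpoint holds back the anaphase-promoting complex (APC/C). Once CDC20 activates that ubiquitin ligase, securin and cyclin B are destroyed, separase cuts cohesin, and a midzone of bundled microtubules places the contractile ring. Most of these genes are transcribed late in the cell cycle under the MuvB complex with B-MYB and FOXM1, and are held down in resting cells by the related DREAM complex, which contacts a promoter element called the cell cycle homology region (CHR). Mature macrophages and neutrophils mostly do not divide, whereas their marrow precursors do.

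Promoter windows were available for 33 of the 40 genes from RefSeq (build GRCm38.p6, the sequence of mm10), each covering 250 bases before to 50 bases after a transcription start. The CHR was searched as TTTGAA or TTCGAA and the binding site of NF-Y, an activator of many mitotic genes, as CCAAT, both on either strand. A CHR match lay in 26 of the 33 genes (78.8%), against 21.7% of all 27025 genes with such a window and 16.9% of the 9545 tested genes with one. Within 60 bases before to 50 after the start a CHR match lay in 24 of the 33 (72.7%), against 6.79% of all genes with a window and 5.01% of the tested ones. A CCAAT match lay in 25 of the 33 (75.8%, against 41.1% of all genes with a window and 43.1% of the tested ones). Matches to CCAAT numbered 2 or more in 16 (48.5%, against 13.3% of all genes with a window). An E2F site, searched as TTTCCCGC, TTTCGCGC, TTTGCCGC or TTTGGCGC on either strand, was present in 1 of the 33, Cdk1 (3.03%, against 2.6% of all genes with a window and 4.68% of the tested ones). These are letter matches in a fixed window, not measured binding. Matches of different motifs shared a base in 1 of the 33 genes, Cdca8.

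The stretches from 110 bases before to 20 bases after the start are printed for the 5 members with the smallest adjusted p that hold a CHR match near the start, since they show the arrangement that most members share. Capitals mark CHR matches (TTTGAA or TTCGAA on either strand) and CCAAT matches on either strand, and each line reads 5′ to 3′ on the gene's strand.
Kif23, chr9:61946780-61946909, minus strand: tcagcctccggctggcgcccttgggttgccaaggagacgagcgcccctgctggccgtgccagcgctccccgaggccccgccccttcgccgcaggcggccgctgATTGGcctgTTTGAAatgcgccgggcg
Cdc20, chr4:118437324-118437453, minus strand: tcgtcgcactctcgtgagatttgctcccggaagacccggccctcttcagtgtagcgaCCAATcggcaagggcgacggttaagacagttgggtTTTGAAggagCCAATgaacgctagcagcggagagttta
Ccnb2, chr9:70421535-70421664, minus strand: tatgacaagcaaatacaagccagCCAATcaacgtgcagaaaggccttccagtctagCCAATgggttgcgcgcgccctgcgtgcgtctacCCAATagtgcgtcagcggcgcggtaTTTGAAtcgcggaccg
Ttk, chr9:83834579-83834708, plus strand: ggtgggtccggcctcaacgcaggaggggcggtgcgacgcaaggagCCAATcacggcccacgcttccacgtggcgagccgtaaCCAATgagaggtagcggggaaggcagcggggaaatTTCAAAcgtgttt
Cdc25b, chr2:131186838-131186967, plus strand: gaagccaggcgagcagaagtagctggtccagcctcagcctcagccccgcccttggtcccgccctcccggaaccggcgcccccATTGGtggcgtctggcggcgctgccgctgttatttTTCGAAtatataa
Kif23 has its CHR match at position 3 and Cdc20 at position -18, counted from the start. In Ccnb2 the CHR match begins at position 5, after CCAAT matches at -87, -54 and -21. Ttk and Cdc25b both carry the CHR match at position 8. For contrast, the 2 members with the smallest adjusted p that hold no CHR match in the whole window are the riser Pttg1 and Nusap1, the member that fell the most.
Pttg1, chr11:43425962-43426091, minus strand: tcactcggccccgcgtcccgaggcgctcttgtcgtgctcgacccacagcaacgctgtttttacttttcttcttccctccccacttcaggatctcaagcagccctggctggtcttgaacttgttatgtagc
Nusap1, chr2:119618188-119618317, plus strand: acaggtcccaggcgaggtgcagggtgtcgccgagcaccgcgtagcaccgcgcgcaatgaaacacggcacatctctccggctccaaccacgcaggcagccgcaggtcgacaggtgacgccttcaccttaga
Neither window holds a match to any of the motifs searched, nor do those of Mad2l1, Nuf2 and Birc5, which fell. These letters were thus absent from the window of the member that rose and also from those of members that fell. The RefSeq start used for Pttg1 lies inside the gene as GENCODE M21 gives it, and the sequence before other starts was not searched.

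Of the 40 members 39 were called lower and 1 higher, where 28.8% of all tested genes were called lower and 29.5% higher. Either call was made for 58.3% of all tested genes. In each of the 39 the highest E-Mac value was lower than the lowest Mac value, as in 27.2% of all tested genes. In Pttg1 the lowest E-Mac value exceeded the highest Mac value, as in 26.7%. The fall was 2-fold or more in 38, against 10.5% of all tested genes. The median log2 fold change was -1.64 over the 40 members and -0.003 over all genes tested. With library size as the only scaling the median over all genes moved to -0.147, and 5018 genes were called lower and 2996 higher in place of 3860 and 3954, but the calls of the 40 members stayed the same. In bulk RNA, fewer dividing cells and less of these transcripts per cell cannot be told apart. Tested against a fold of 1.5 in place of no change, all 40 kept their call (largest adjusted p = 0.0391).

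**Figure D1:**
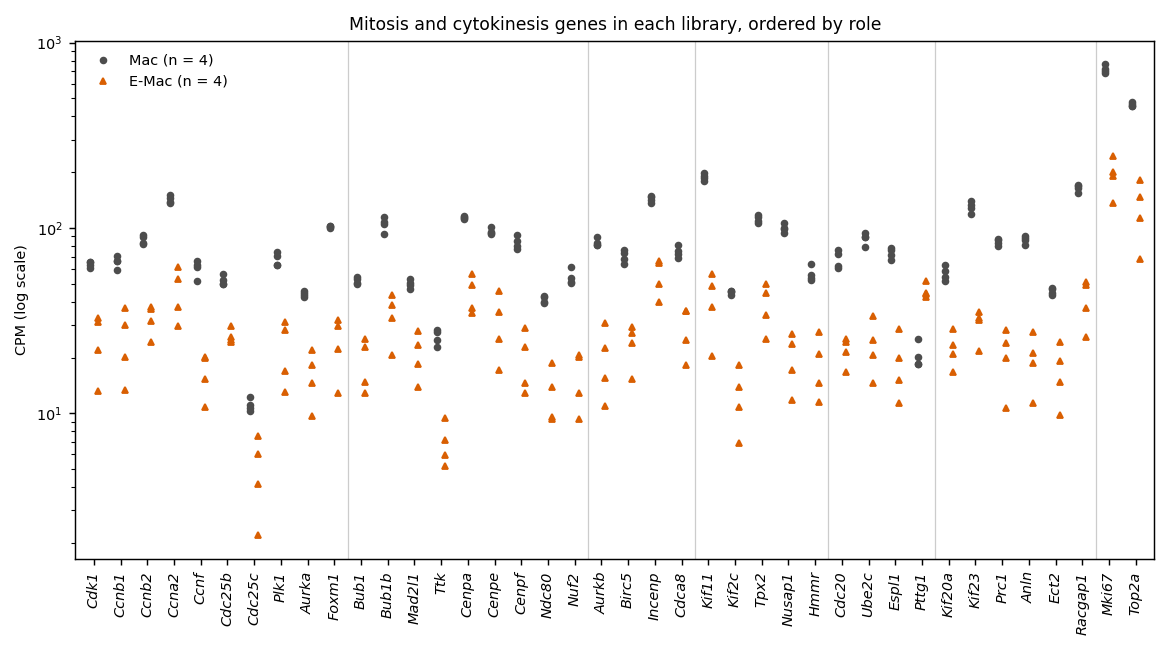
CPM (log axis) of the 40 members in each library, grouped by role from mitotic entry on the left to the mitotic chromosome on the right, with 4 Mac points (circles) and 4 E-Mac points (triangles) per gene. In 39 genes the triangles lie below the circles and in Pttg1 above them, and in most genes the triangles spread more widely than the circles.

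**Figure D2:**
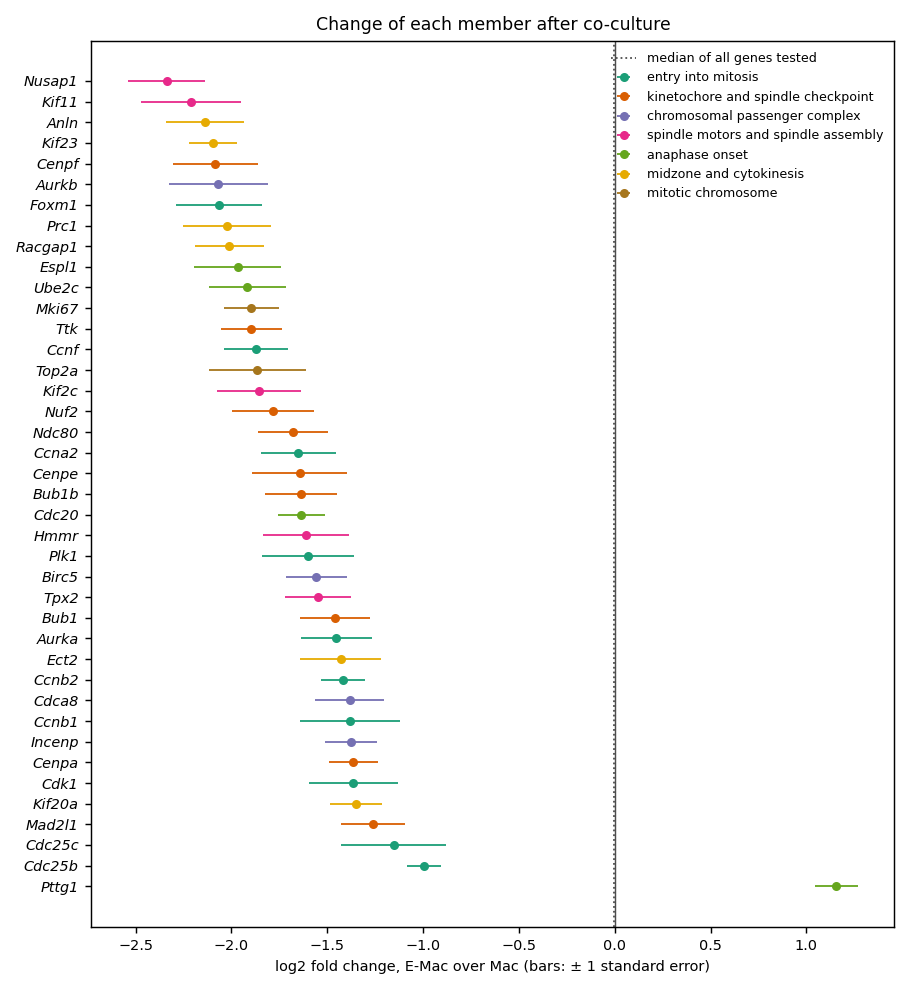
Log2 fold change of each member, E-Mac over Mac, with bars of 1 standard error, coloured by role. Values run from -2.34 for Nusap1 to -0.995 for Cdc25b among the 39 that fell, and Pttg1 stands alone at 1.16.

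Both genes of the mitotic chromosome fell, with a median of -1.88. Mki67, whose protein Ki-67 coats mitotic chromosomes and is the standard marker of cycling cells, was at 764, 687, 704 and 719.6 CPM in Mac 1 to 4 and 245, 136, 201 and 189.5 CPM in E-Mac 1 to 4. The 2 groups were far apart, and the highest E-Mac library held less than any Mac library. The fall was 3.73-fold (-1.90 ± 0.14, adjusted p = 3.8e-07). Top2a, the topoisomerase that untangles sister chromatids, was at 453, 456, 466 and 476 CPM in Mac 1 to 4 and 181, 67.8, 146 and 114 CPM in E-Mac 1 to 4. Its fall was 3.64-fold (-1.87 ± 0.25, adjusted p = 0.00024), with the lowest value in E-Mac 2. Per kilobase of exon, Mki67 was the most abundant member in Mac, with 71.4 CPM per kb in Mac and 19.2 in E-Mac, ahead of Ccnb2 (56.6 CPM per kb in Mac and 21.2 in E-Mac) and Top2a (51.4 CPM per kb in Mac and 14.1 in E-Mac). Over all members the median place in the ranking of tested genes by CPM per kb went from the 74.9th percentile in Mac to the 49.5th in E-Mac.

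All 10 genes of mitotic entry fell, with a median of -1.43. Cdk1, the kinase that starts mitosis, was at 60.7, 65.2, 65.9 and 63.2 CPM in Mac 1 to 4 and 31.3, 13.2, 32.8 and 21.9 CPM in E-Mac 1 to 4 (-1.36 ± 0.23, adjusted p = 0.000637). Its partner Ccnb1, cyclin B1, was at 59.02, 66.02, 70.5 and 66.1 CPM in Mac 1 to 4 and 37.2, 13.4, 29.8 and 20.2 CPM in E-Mac 1 to 4 (-1.38 ± 0.26, adjusted p = 0.00158). For both genes the groups did not overlap, and the E-Mac values spanned 2.48-fold and 2.77-fold from lowest to highest, with E-Mac 2 lowest. Ccnb2, the second B cyclin, was at 81.8, 83.4, 89.6 and 91.7 CPM in Mac 1 to 4 and 36.6, 24.3, 37.2 and 31.6 CPM in E-Mac 1 to 4 (-1.42 ± 0.11, adjusted p = 2.67e-07). Its E-Mac libraries were closer together, within 1.53-fold. Ccnf, the F-box cyclin that marks CDC6 and other proteins for destruction, was at 63.3, 51.6, 61.4 and 66.3 CPM in Mac 1 to 4 and 19.9, 10.9, 20.1 and 15.4 CPM in E-Mac 1 to 4 (-1.87 ± 0.17, adjusted p = 1.45e-06).

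Cdc25b, a phosphatase that switches CDK1 on, fell the least of the 39 and was at 52.3, 49.7, 49.8 and 56.2 CPM in Mac 1 to 4 and 29.5, 24.8, 25.9 and 24.2 CPM in E-Mac 1 to 4 (-0.995 ± 0.09, adjusted p = 5.14e-07). It was also the member with the narrowest E-Mac spread among those that fell, 1.22-fold. The sister phosphatase Cdc25c had the lowest level of all members per kilobase and averaged 11.1 ± 0.885 CPM in Mac and 4.998 ± 2.33 in E-Mac (mean ± SD, n = 4), with 32 counts in its lowest library (-1.15 ± 0.27, adjusted p = 0.00306). Of the 40 members its value moved the most with the libraries used, -0.70 without E-Mac 2 and 4 and -1.79 without E-Mac 1 and 3. Foxm1, the transcription factor that drives many of these genes, had the largest fall of the entry group (-2.07 ± 0.22, adjusted p = 3.52e-05), from 101 ± 1.28 CPM in Mac to 24.2 ± 8.56 in E-Mac. The cyclin A2 gene Ccna2 (-1.65 ± 0.19, adjusted p = 5.28e-05), the polo kinase gene Plk1 (-1.60 ± 0.24, adjusted p = 0.000315) and Aurka, the kinase of spindle poles (-1.45 ± 0.19, adjusted p = 3.84e-05), lay between these extremes.

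Kinetochore and spindle checkpoint genes fell in 9 of 9 cases, with a median of -1.64. Ttk, which encodes the MPS1 kinase that starts checkpoint signalling, was at 24.7, 27.4, 22.7 and 28.3 CPM in Mac 1 to 4 and 9.43, 5.23, 7.14 and 5.97 CPM in E-Mac 1 to 4 (-1.90 ± 0.16, adjusted p = 3.74e-07). Cenpa, the histone variant that defines the centromere, was at 114, 112, 115 and 113 CPM in Mac 1 to 4 and 56.1, 34.7, 49.2 and 36.95 CPM in E-Mac 1 to 4 (-1.36 ± 0.13, adjusted p = 2.03e-06). The 4 Mac values of Cenpa lay close together, and E-Mac 2 and 4 held the lowest values. Ndc80, a subunit of the microtubule-binding NDC80 complex, was at 42.4, 39.3, 39.9 and 42.7 CPM in Mac 1 to 4 and 18.7, 9.35, 13.8 and 9.56 CPM in E-Mac 1 to 4 (-1.68 ± 0.18, adjusted p = 8.13e-06), and its partner Nuf2 also fell (-1.78 ± 0.21, adjusted p = 3.61e-05). The largest change of the group was that of Cenpf (-2.08 ± 0.22, adjusted p = 2.37e-05), a large coiled-coil protein of the outer kinetochore. The kinetochore motor gene Cenpe (-1.64 ± 0.25, adjusted p = 0.000426), the checkpoint kinase gene Bub1 (-1.46 ± 0.18, adjusted p = 3.25e-05) and Bub1b, which encodes BUBR1 (-1.64 ± 0.19, adjusted p = 3.52e-05), fell as well. Mad2l1, whose protein MAD2 binds and blocks CDC20, changed least of the 9 (-1.26 ± 0.17, adjusted p = 4.1e-05).

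The chromosomal passenger complex corrects faulty attachments and later moves to the midzone, and all 4 of its genes fell, with a median of -1.47. Its scaffold Incenp was at 146, 136, 141 and 149 CPM in Mac 1 to 4 and 66.4, 39.96, 64.4 and 49.7 CPM in E-Mac 1 to 4 (-1.38 ± 0.14, adjusted p = 3.93e-06). Birc5, which encodes survivin, was at 68.3, 63.8, 73.2 and 75.9 CPM in Mac 1 to 4 and 29.2, 15.3, 27.2 and 23.9 CPM in E-Mac 1 to 4 (-1.56 ± 0.16, adjusted p = 5.82e-06). Cdca8, which encodes borealin, was at 72.6, 68.8, 75.2 and 81.2 CPM in Mac 1 to 4 and 35.5, 18.2, 35.6 and 25.01 CPM in E-Mac 1 to 4 (-1.38 ± 0.18, adjusted p = 7.26e-05). These 3 genes fell by 2.598-fold to 2.94-fold. The kinase of the complex, Aurkb, fell by 4.19-fold, from 83.3 ± 4.26 CPM in Mac to 19.9 ± 8.61 in E-Mac (-2.07 ± 0.26, adjusted p = 0.000119). In CPM per kb Aurkb stood at 0.83 to 0.88 of Incenp in the Mac libraries and at 0.40 to 0.68 of it in the E-Mac libraries, ranges that do not overlap. This ratio was singled out after the values had been seen and was not tested.

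Genes of the spindle fell in 5 of 5 cases, with a median of -1.86. Nusap1, a protein that bundles microtubules around chromosomes, had the largest fall of all 40 members and was at 94.05, 98.9, 100.3 and 106 CPM in Mac 1 to 4 and 26.7, 11.8, 23.6 and 17.04 CPM in E-Mac 1 to 4 (-2.34 ± 0.20, adjusted p = 4.43e-06). Tpx2, which nucleates spindle microtubules and activates Aurora A, was at 107, 109, 115 and 118 CPM in Mac 1 to 4 and 49.96, 25.03, 44.5 and 33.9 CPM in E-Mac 1 to 4 (-1.55 ± 0.17, adjusted p = 2.41e-05). Kif2c, a kinesin that shortens microtubules, was at 45.4, 43.7, 45.5 and 45.6 CPM in Mac 1 to 4 and 18.2, 6.95, 13.9 and 10.8 CPM in E-Mac 1 to 4 (-1.86 ± 0.22, adjusted p = 2.81e-05). All 3 showed the same order of E-Mac libraries, highest in E-Mac 1, then 3, 4 and 2. Kif11, the motor that pushes the spindle poles apart, had the next largest fall after Nusap1 (-2.21 ± 0.26, adjusted p = 0.000108), from 188 ± 8.18 CPM in Mac to 40.8 ± 15.7 in E-Mac, and the hyaluronan-binding spindle protein gene Hmmr also fell (-1.61 ± 0.22, adjusted p = 0.000137).

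The 4 genes of anaphase onset split. Cdc20, the APC/C activator, was at 61.1, 62.6, 72.5 and 75.6 CPM in Mac 1 to 4 and 24.3, 16.7, 25.1 and 21.4 CPM in E-Mac 1 to 4 (-1.64 ± 0.12, adjusted p = 1.17e-07). Ube2c, which encodes the ubiquitin-conjugating enzyme of the APC/C, was at 78.5, 89.2, 89.1 and 94.4 CPM in Mac 1 to 4 and 33.5, 14.5, 24.7 and 20.6 CPM in E-Mac 1 to 4 (-1.92 ± 0.20, adjusted p = 1.96e-05). Separase, the protease that cuts cohesin, is encoded by Espl1, which fell from 73.2 ± 4.82 CPM in Mac to 18.8 ± 7.42 in E-Mac (-1.97 ± 0.23, adjusted p = 4.44e-05).

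Securin, the inhibitor and chaperone of separase, is encoded by Pttg1, and it was the only one of the 40 members called higher. Pttg1 was at 20.2, 25.2, 18.5 and 18.4 CPM in Mac 1 to 4 and 43.8, 44.6, 51.9 and 42.5 CPM in E-Mac 1 to 4. The groups did not overlap, and the E-Mac libraries lay within 1.22-fold of each other, as they did in Cdc25b. The rise was 2.23-fold (1.16 ± 0.11, adjusted p = 1.45e-06), and it was 1.01 with library size as the only scaling and 1.23 without E-Mac 2 and 4. In CPM per kb Pttg1 stood at 1.04 to 1.65 times Espl1 in the Mac libraries and at 6.7 to 17.1 times Espl1 in the E-Mac libraries, a ratio that was not tested. In E-Mac it was the most abundant member per kilobase (10.3 CPM per kb in Mac and 22.9 in E-Mac). No exon of another gene in the GENCODE M21 annotation overlaps Pttg1 on mm10 (chromosome 11, 43420250 to 43426251, protein coding).

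All 6 genes of the midzone and cytokinesis fell, and their median of -2.02 was the lowest of the role groups, although the groups were not tested against each other. Kif23, a kinesin of the centralspindlin complex, had the smallest adjusted p of all members and was at 133, 119, 128 and 140.2 CPM in Mac 1 to 4 and 35.3, 21.7, 32.1 and 32.8 CPM in E-Mac 1 to 4 (-2.09 ± 0.13, adjusted p = 2.34e-08). Racgap1, the other centralspindlin subunit, was at 154, 165, 171 and 168 CPM in Mac 1 to 4 and 51.3, 25.8, 49.2 and 37.2 CPM in E-Mac 1 to 4 (-2.01 ± 0.18, adjusted p = 5.67e-06). These partners fell by 4.27-fold and 4.03-fold, and E-Mac 2 was the lowest library for both. Kif20a, the kinesin that carries the passenger complex to the midzone, was at 54.2, 51.7, 58.4 and 63.4 CPM in Mac 1 to 4 and 28.4, 16.8, 23.5 and 20.9 CPM in E-Mac 1 to 4 (-1.35 ± 0.13, adjusted p = 1.91e-06). The microtubule bundler gene Prc1 (-2.02 ± 0.23, adjusted p = 4.27e-05) and Anln, which encodes the ring protein anillin (-2.14 ± 0.20, adjusted p = 8.32e-06), also fell, and so did the RhoA activator gene Ect2 (-1.43 ± 0.21, adjusted p = 0.000173). On mm10, Kif23 lies on chromosome 9, 61915905 to 61946774, Nusap1 on chromosome 2, 119618298 to 119651244, Cdc20 on chromosome 4, 118432901 to 118437352 and Mki67 on chromosome 7, 135689784 to 135716361, all protein coding.

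Exons of 14 pairs of a member and another annotated gene overlap, and the strand setting of the counting is not stated in the labels or notes used here. The longest shared stretches are 1271 bases of Kif20a with Cdc23, 911 of Prc1 with Rccd1, 623 of Cdc25c with Gm3550, 592 of Ube2c with Tnnc2 and 510 of Ccna2 with Exosc9, each on opposite strands. Reads there cannot be assigned to one gene with certainty. Mean levels over all 8 libraries were 31.9 CPM for Cdc23, 18.7 for Exosc9, 3.7 for Rccd1, 0.333 for Gm3550 and 0 for Tnnc2. The most expressed overlapping gene was Elovl1, at 103 CPM, which shares 53 bases with Cdc20 on the opposite strand. Cdca8 shares 232 bases with 9930104L06Rik, at 11.9 CPM, also on the opposite strand.

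Within the E-Mac group the members moved together from library to library. Of the 39 that fell, 33 were highest in E-Mac 1 and 38 lowest in E-Mac 2, and in 38 both E-Mac 2 and 4 lay below E-Mac 1 and 3. Relative to the Mac mean, the median member was at -1.25 in E-Mac 1, -2.25 in E-Mac 2, -1.41 in E-Mac 3 and -1.92 in E-Mac 4 on a log2(CPM + 0.5) scale, and between -0.06 and 0.07 in the Mac libraries. The highest E-Mac library exceeded the lowest by a median of 2.21-fold over these 39 genes, against 1.26-fold over the 8512 tested genes with a mean of at least 10 CPM in E-Mac. In Mac the same figures were 1.12-fold and 1.14-fold. The members share these libraries, so their common order is 1 observation per library and not 39.

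**Figure D3:**
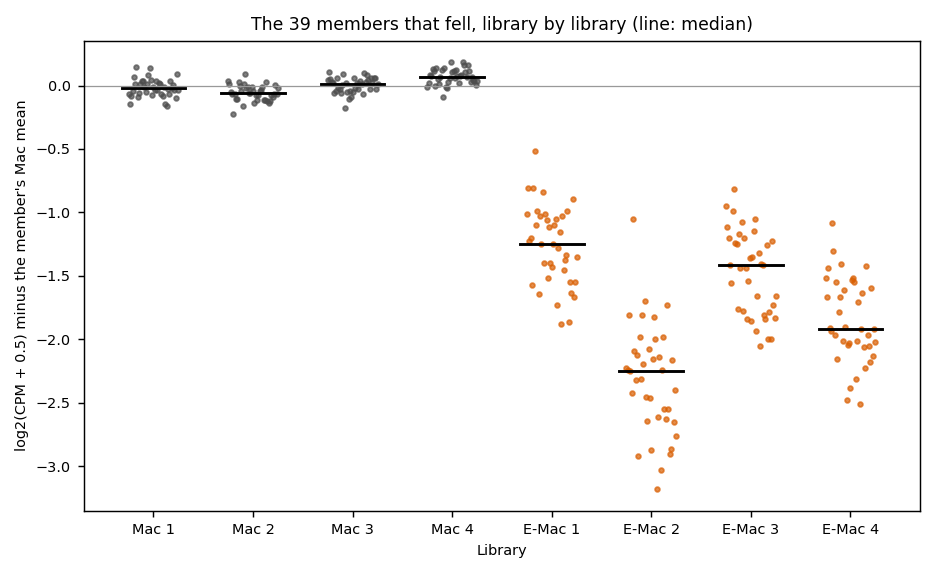
Log2(CPM + 0.5) of each of the 39 members that fell, minus that member's mean over the Mac libraries, in each library, with the median as a line. The Mac medians lie near 0 and the E-Mac medians at -1.25, -2.25, -1.41 and -1.92 in E-Mac 1 to 4.

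Other cell types that the sorted cells could include were followed with marker lists. The 14 stromal markers, led by the collagen genes Col1a1 and Col1a2, summed to 10.9 to 13.02 CPM in Mac, to 65.3 and 49.03 in E-Mac 1 and 3 and to 379 and 413 in E-Mac 2 and 4. The libraries with more stromal counts were thus those with fewer mitosis transcripts. Across the Mac libraries 3 of the 14 stromal markers had 0 counts, and none was at 0 in all 8 libraries. With only E-Mac 1 and 3, 39 members were still called lower and Pttg1 higher, with a median of -1.32. In that fit 4146 of 14128 tested genes were called lower and 4350 higher. With only E-Mac 2 and 4 the member calls were the same in number and the median was -2.11. There 3848 of 14256 tested genes were called lower and 4016 higher.

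The summed markers of granulocytes and of blood cell precursors were also lower in E-Mac. For the counts of calls given below, the shares over all tested genes were 28.8% lower and 29.5% higher. The 18 granulocyte markers, led by S100a9 and Ngp, fell to 0.411 of their Mac mean, and 12 of the 18 were called lower and 2 higher. Within E-Mac that sum was higher in E-Mac 2 and 4 (19076 and 16590 CPM), where the members were lowest, than in E-Mac 1 and 3 (11821 and 12537 CPM). The 7 primary granule genes of granulocyte precursors went from 799 ± 66.9 to 453 ± 87.9 CPM (mean ± SD, n = 4). Of the 7, 3 were called lower (42.9%) and 4 not called. Fcnb (-3.40 ± 0.12, adjusted p = 8.14e-11) and Mpo (-0.87 ± 0.24, adjusted p = 0.0128) fell, Cebpe (-0.14 ± 0.17, adjusted p = 0.487) did not pass, and 6 of these 7 genes are also in the granulocyte list. The 9 stem and progenitor genes went from 141 ± 8.9 to 75.3 ± 10.9 CPM, and of the 8 tested 4 fell, 1 rose and 3 did not pass. Myb (-1.08 ± 0.13, adjusted p = 7.97e-06) and Flt3 (-2.46 ± 0.19, adjusted p = 2.59e-07) fell, whereas Cd34, singled out as the 1 of them called higher, rose (1.07 ± 0.17, adjusted p = 0.000107). Within E-Mac the primary granule sum was 502.7, 322, 504 and 483.5 CPM in E-Mac 1 to 4, lowest in E-Mac 2 as the members were. The progenitor sum did not follow the members, with 72.3, 74.1, 64.3 and 90.4 CPM in E-Mac 1 to 4. For each of these lists and for the stromal one an exact two-sided permutation test gave p = 0.0286, the smallest that 4 against 4 libraries allow (0.0322 after Benjamini-Hochberg adjustment over 9 marker lists). Of the precursor and progenitor markers none was at 0 in all libraries. The macrophage core sum was also lower in E-Mac (exact p = 0.0286), through Lyz2 (-0.87 ± 0.10, adjusted p = 1.13e-05), while 7 of its 14 genes rose and 3 fell. The part of any of these cell types in the fall of the members was not tested.

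The remaining lists were small. T and NK cell markers summed to 6.33 to 10 CPM in Mac and 2.02 to 3.31 in E-Mac, with Cd3e at 0 in all libraries. Dendritic cell markers summed to 76.5 to 81.7 CPM in Mac and 37.04 to 64.5 in E-Mac, but moved in opposite directions. Of these 8 genes 4 were called lower, 2 higher and 2 not called, with log2 fold changes from -6.52 to 5.31. Over all tested genes 28.8% were called lower and 29.5% higher. Erythroid and megakaryocyte markers summed to 109 to 136 CPM in Mac and 163 to 268 in E-Mac, although most genes of the list fell. Of its 8 tested genes 6 were called lower and 2 higher, with a median of -5.57. The sum rose through the 2 called higher, Pf4 (7.84 ± 0.48, adjusted p = 2.11e-06) and the transferrin receptor gene Tfrc (1.33 ± 0.12, adjusted p = 1.05e-06), while Hbb-bs and Hba-a1 had 0 counts in E-Mac. These 3 sums also gave an exact p of 0.0286. B cell markers summed to 15.6 to 18.1 and 14.2 to 27.99 CPM, ranges that overlap (exact p = 0.143), although all 5 of the list's tested genes were called, 4 higher and 1 lower, with a median of 1.46.

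**Figure D4:**
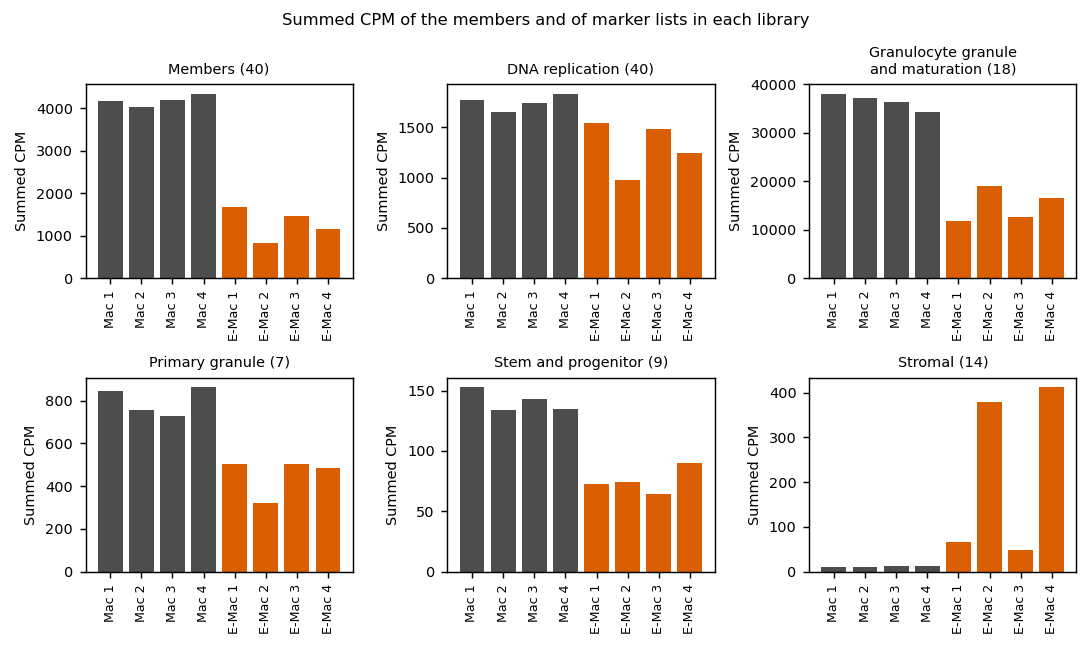
Summed CPM in each library of the 40 members, of 40 DNA replication genes and of 4 marker lists, with Mac in grey and E-Mac in orange. The members fall from 4031 to 4348 CPM in Mac to 837 to 1676 in E-Mac, and the stromal sum is highest in E-Mac 2 and 4.

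Mitosis genes outside the set mostly fell too. Of 78 others, 73 fell (93.6%, against 28.8% of all tested genes), 1 rose and 4 did not pass. Their median was -1.53, and 60 fell 2-fold or more, against 10.5% of all tested genes. The smallest adjusted p belonged to Depdc1b (-2.52 ± 0.10, adjusted p = 3.12e-10), a regulator of adhesion at mitotic entry, Aspm (-2.24 ± 0.11, adjusted p = 2.44e-09), a spindle pole protein, and Hjurp (-1.42 ± 0.07, adjusted p = 3.16e-09), the chaperone that loads CENP-A. Hjurp went from 315 ± 14.4 CPM in Mac to 117 ± 9.39 in E-Mac. Zwint, which links the kinetochore to the RZZ complex, was the 1 that rose (0.87 ± 0.08, adjusted p = 6.95e-07), from 39.2 ± 3.197 CPM in Mac to 71.5 ± 3.84 in E-Mac, and the groups did not overlap. Mis12, Cenpw, Gas2l3 and Clasp2 did not pass, at -0.17 ± 0.09, adjusted p = 0.121; -0.33 ± 0.19, adjusted p = 0.157; -0.07 ± 0.14, adjusted p = 0.701; and -0.002 ± 0.08, adjusted p = 0.987.

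Genes of APC/C subunits and regulators fell more often than they rose, where 28.8% of all tested genes were called lower and 29.5% higher. Of 17 subunits and regulators 9 fell (52.9%) and 2 rose, with a median of -0.29, and 1 fell 2-fold or more. That 1 was Fbxo5 (-1.71 ± 0.16, adjusted p = 1.03e-06), the EMI1 inhibitor that keeps the APC/C off before mitosis. The subunit gene Anapc16 (-0.48 ± 0.09, adjusted p = 0.000307) and Fzr1, the CDH1 activator of late mitosis and G1 (-0.37 ± 0.07, adjusted p = 0.000371), fell a little. Anapc10 (0.66 ± 0.15, adjusted p = 0.00255) and Anapc4 (0.21 ± 0.08, adjusted p = 0.0418) rose. With only E-Mac 1 and 3, 4 of the 17 rose, all of them subunit genes, and 7 fell. In that fit 4350 of 14128 tested genes were called higher and 4146 lower. With library size as the only scaling 1 of the 17 rose.

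Among 20 condensin and cohesin genes 15 fell (75%, against 28.8% of all tested genes) and 2 rose (against 29.5%), with a median of -0.61. The condensin subunits Ncapd3 (-1.47 ± 0.09, adjusted p = 2.69e-08) and Smc4 (-1.30 ± 0.10, adjusted p = 1.43e-07) and the cohesin acetyltransferase Esco2, which acts in S phase (-2.28 ± 0.15, adjusted p = 4.19e-08), had the smallest adjusted p. Wapl, which releases cohesin (0.19 ± 0.07, adjusted p = 0.0266), and the condensin II gene Ncapg2 (0.33 ± 0.12, adjusted p = 0.0312) rose slightly. Both rises were lost with library size only, where no gene of the list was called higher.

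MuvB, DREAM and E2F regulator genes fell in 13 of 19 cases (68.4%, against 28.8% of all tested genes) and rose in 2 (against 29.5%). Their median was -0.42. E2f2 (-1.19 ± 0.06, adjusted p = 1.77e-09), E2f8 (-1.57 ± 0.10, adjusted p = 1.66e-08) and Tfdp2, a dimerisation partner of E2F proteins (-2.11 ± 0.16, adjusted p = 9.77e-08), had the smallest adjusted p. E2f3 (0.59 ± 0.12, adjusted p = 0.00067) rose, and so did E2f4 (0.34 ± 0.07, adjusted p = 0.00101), which encodes the E2F of the DREAM complex. Mybl2, which encodes the B-MYB partner of MuvB, averaged 22.1 ± 1.69 CPM in Mac and 16.6 ± 5.305 in E-Mac and did not pass (-0.42 ± 0.20, adjusted p = 0.101), and neither did the MuvB subunits Lin37 (-0.14 ± 0.12, adjusted p = 0.339), Lin52 (-0.08 ± 0.16, adjusted p = 0.687) and Lin54 (-0.05 ± 0.08, adjusted p = 0.566). Foxm1 and Mybl2, whose proteins both act with MuvB on mitotic promoters, thus stood at -2.07 and -0.42, a difference that was not tested.

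Genes of the G2 checkpoint and of the control of CDK1, whether they restrain it or not, went both ways. Of 17 tested 6 fell (35.3%) and 5 rose, shares near those of all tested genes (28.8% lower, 29.5% higher), with a median of -0.11. The phosphatase gene Cdc25a (-1.21 ± 0.10, adjusted p = 3.13e-07), the checkpoint kinase gene Chek2 (-1.39 ± 0.12, adjusted p = 5.27e-07) and the CDK1-inhibiting kinase gene Pkmyt1 (-1.57 ± 0.20, adjusted p = 2.96e-05) fell. Cdkn1a, which encodes the CDK inhibitor p21, rose from 52.7 ± 18.9 CPM in Mac to 174 ± 32.1 in E-Mac (1.73 ± 0.24, adjusted p = 0.000238), and the stress gene Gadd45b rose from 27.6 ± 2.78 CPM in Mac to 55.5 ± 7.23 in E-Mac (1.01 ± 0.11, adjusted p = 2.87e-06). Ppp2r2a (0.32 ± 0.07, adjusted p = 0.00203), which encodes a subunit of the phosphatase PP2A-B55, and Ensa (0.23 ± 0.07, adjusted p = 0.0125), which encodes its inhibitor, also rose. Gadd45g rose with overlapping groups (0.45 ± 0.15, adjusted p = 0.0179). With library size as the only scaling 3 genes of the list were called higher. Rprm was the 1 gene of the list not tested, with 0 counts.

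DNA replication genes, which act in S phase before mitosis, fell in 20 of 40 cases (50%) and rose in 4. Of all tested genes 28.8% were called lower and 29.5% higher. The median of the replication genes was -0.23 beside the -1.64 of the mitosis genes. Cdk2 (-0.87 ± 0.07, adjusted p = 2.56e-07), the polymerase subunit gene Pold1 (-0.77 ± 0.11, adjusted p = 4.47e-05) and the thymidine kinase gene Tk1 (-1.04 ± 0.15, adjusted p = 4.59e-05) had the smallest adjusted p. Among those that rose were Gins2 (0.83 ± 0.19, adjusted p = 0.00188) and, with overlapping groups, Orc1 and Cdt1. Of the MCM helicase genes Mcm2 (0.09 ± 0.15, adjusted p = 0.617), Mcm3 (-0.02 ± 0.15, adjusted p = 0.933) and Mcm6 (-0.11 ± 0.15, adjusted p = 0.531) did not pass. The summed CPM of the 40 genes varied across E-Mac in the same order as the members, with 1545, 978, 1483 and 1248 in E-Mac 1 to 4, against 1657 to 1835 in Mac. With only E-Mac 1 and 3, 18 fell and 7 rose, Mcm2 and Mcm3 among the latter. In that fit 4146 of 14128 tested genes were called lower and 4350 higher. The 2 lists were not tested against each other.

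**Figure D5:**
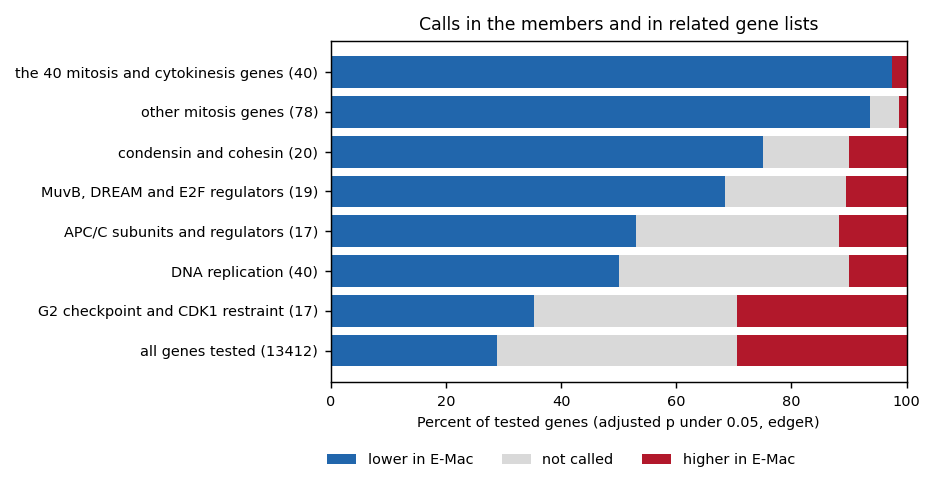
Percent of tested genes called lower, not called or called higher in E-Mac (edgeR, adjusted p under 0.05) for the 40 members, for 6 related lists and for all 13412 genes tested. The share called lower is 97.5% in the members, 93.6% in the other mitosis genes and 28.8% over all genes.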

How the data were processed

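A single deposited table holds raw counts per gene symbol for the 8 libraries, as the authors made it. Per the submitters' processing notes the build was mm10, and the tools named are HISAT2, featureCounts from Subread, bcl2fastq and DESeq2. Versions, the annotation and the settings for strand or multi-mapped reads are not stated there. RNA was extracted with a micro column kit with DNase and libraries were made with a VAHTS V3 mRNA kit, per the labels' protocols. Of the 53673 names 26 had the form of dates and were left out (at most 0.160% of a library). Totals were 11646025 to 15740846 counts. Replicates differed by more than sampling noise (chi-square over degrees of freedom from 4.85 up), so none was counted as a duplicate.

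The main test was edgeR's quasi-likelihood test (version 4.0.16, R 4.3.3), with group as the only term and the robust option. Low counts were removed with filterByExpr at a minimum count of 10 and a total of 15, and TMM factors ran from 0.931 to 1.07. Genes with an adjusted p under 0.05 were called. Standard errors are the size of the log2 fold change over the root of its F value. DESeq2 1.42.0 and limma 3.58.1 (voom) served as alternatives, besides other scalings, filters, thresholds, a replicate block and left-out libraries. The script was tested on simulated data. Gene positions and exon lengths (union of exons) are from GENCODE M21 on mm10, and promoters from RefSeq.

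The members and lists were chosen with earlier results of these data known. Values in all libraries were printed for up to 3 members per role group with the smallest adjusted p, for Mki67, Top2a, Cdk1 and Ccnb1, and for members called higher. Each pathway list gave the 3 genes with the smallest adjusted p and up to 4 called against its direction, of which 1 is not reported here. Pairs of members whose ratio is given were chosen after their values were seen. Genes named outside this rule, such as those of a list that did not pass, Cd34 and the MCM genes, were also chosen then.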

Additional observations from a re-analysis of the deposited data

Results flagged for a closer look

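Among the 80 sets of 4 values (40 members in 2 groups), 1 held a library far from the other 3. Kif2c was at 43.7 CPM in Mac 2, against 45.35 to 45.56 CPM in the other Mac libraries, a gap of 0.889 of the whole range and above Dixon's limit for 4 samples. Chance alone flags about 1 set in 20. The gap is small beside the E-Mac values of Kif2c, 6.95 to 18.2 CPM.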

How the results depend on the processing

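Over 21 alternatives all 840 single values of the 40 members kept their direction and their side of the threshold. These included DESeq2, limma-voom, other scalings and filters, and every left-out library. No call of a member was lost with the replicate number as a block (39 lower, 1 higher, 7458 calls over all genes), and that block changed no other count by over 1.5 times except 2 small ones given next. Deviations of libraries with the same number correlated at -0.106 to 0.028, and those with different numbers at -0.0876 to 0.116. Not every library correlated best with its own number. These values cannot show whether libraries with the same number share a culture or animal, which the labels do not give. Counts of higher genes in the APC/C list (2) and the condensin and cohesin list (2) were the least stable. They were 1 and 1 with the replicate block, 1 and 0 with upper-quartile factors, library size only, at least 10 CPM in 4 libraries or an adjusted p under 0.01, 4 and 1 without E-Mac 2 and 4, 1 and 1 without E-Mac 1 and 3, and 1 to 2 and 0 to 2 with 1 library left out. The G2 checkpoint list had 3 higher genes with library size only or an adjusted p under 0.01. The replication list (4 higher) had 2 higher with at least 10 CPM in 4 libraries, an adjusted p under 0.01 or without E-Mac 1 and 3, and 7 without E-Mac 2 and 4. Against a fold of 1.5, 2968 genes were called, and lower and higher calls were 1 and 0 for APC/C, 8 and 0 for condensin and cohesin, 6 and 0 for MuvB, DREAM and E2F, 8 and 1 for replication, with 2 higher for G2 checkpoint. The members' median was -2.11 without E-Mac 1 and 3, and -1.84 to -1.46 with 1 library left out. Without E-Mac 2 and 4 the E-Mac sums were 0.334 (granulocyte), 0.630 (primary granule), 0.484 (progenitor) and 4.91 (stromal) times those of Mac, and the exact p could go no lower than 0.0667. With library size only, the median over all genes was -0.147 and calls were 5018 lower and 2996 higher, against 3860 and 3954. Depth limits Cdc25c most, with 32 counts in its lowest library. Why values moved was not tested.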

Other observations

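Of 8 ratios between partners within the set, taken in CPM per kb, 3 had ranges in Mac and E-Mac that did not overlap (Pttg1 over Espl1, Aurkb over Incenp and Aurka over Aurkb), and 5 had ranges that overlapped. Aurka stood at 0.592 to 0.647 of Aurkb in the Mac libraries, whereas in E-Mac it stood at 0.832 to 1.099 of Aurkb. Ccnb1 over Cdk1 was 1.14 to 1.25 in Mac against 1.06 to 1.39 for the E-Mac libraries. Ccnb1 over Ccnb2 was 0.262 to 0.287 in Mac against 0.2 to 0.3685 for E-Mac. For Kif23 over Racgap1 the ranges were 0.648 to 0.772 and 0.584 to 0.79, for Cdc20 over Ube2c 0.9764 to 1.133 and 1.01 to 1.603, and for Plk1 over Mki67 0.3785 to 0.4715 and 0.4077 to 0.6398, Mac first. These pairs were chosen after the values had been seen, and none of the ratios was tested.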
